A study of Mus musculus with 12 samples.

Results

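The genes described are 8 transcription factors of the mammalian circadian clock, Arntl, Clock, Npas2, Rora, Dbp, Tef, Hlf and Nfil3, measured by RNA sequencing of mouse heart. They were taken by symbol from a table of 17397 genes, and all 8 were found and passed the filter on low counts, which left 12778 genes. The set was chosen by gene name with the scaled CPM of these 12 libraries, Dbp and Arntl among them, already known, so levels, differences and counts of members called are given as a description, and nothing is concluded from a call on a member. The hearts came from male C57BL/6J wild-type mice aged 8 weeks in 4 groups of 3 libraries. Tumour trained mice were trained on a treadmill for 4 weeks, 5 days a week, and received intravenous injections of 100000 B16F10 cells, which are mouse melanoma cells, in the tail from week 2 on. Tumour mice received the cells without training, trained mice ran without receiving cells, and control mice are labelled as given saline. After a first week of adaptation, a session held 35 min of running at 12 m/min, preceded by 5 min at 6 m/min. The labels do not say whether saline was given to trained mice, nor whether each library is a separate animal. The p-values thus reflect only library-to-library spread, which may be technical. The hour of dissection is not given in the labels, and hour of day and group therefore cannot be told apart.

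The clock is a feedback loop of transcription. ARNTL (also called BMAL1) pairs with CLOCK, or with its relative NPAS2, and the pair binds E-box sequences in the genes for the period and cryptochrome repressors, for the nuclear receptors NR1D1 and NR1D2, and for the output factors DBP, TEF and HLF. DBP, TEF and HLF are PAR-bZIP activators that bind D-box sequences, where NFIL3 acts as a repressor, while RORA activates Arntl through ROR elements that NR1D1 and NR1D2 repress. In mouse heart as in other organs, Dbp and Arntl messenger RNA peak at opposite times of the day, which makes the ratio of their counts a rough hint of phase.

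Start-site sequences are shown for the members in which a letter match to 1 of these elements was found. They show where the letters lie, and binding at them was not measured. Each run is the RefSeq GRCm38.p6 promoter, 250 bases before to 50 bases after a transcription start, read 5′ to 3′ on the gene's strand, with the match in capitals. All 8 members were found in that table, with 12 starts. Motifs were searched on both strands as letters: CACGTG for the E-box, TTATGTAA, TTATGCAA and TTACGTAA for the D-box, and TAGGTCA for the core of the ROR element.
Tef, first start, chr15:81802423-81802722, plus strand: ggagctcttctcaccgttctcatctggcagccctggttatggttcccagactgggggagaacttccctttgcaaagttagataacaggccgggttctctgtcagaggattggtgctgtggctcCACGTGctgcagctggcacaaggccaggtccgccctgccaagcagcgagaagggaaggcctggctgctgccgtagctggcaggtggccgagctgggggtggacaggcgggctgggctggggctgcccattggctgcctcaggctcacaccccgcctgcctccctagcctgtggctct
Tef, second start, chr15:81811164-81811463, plus strand: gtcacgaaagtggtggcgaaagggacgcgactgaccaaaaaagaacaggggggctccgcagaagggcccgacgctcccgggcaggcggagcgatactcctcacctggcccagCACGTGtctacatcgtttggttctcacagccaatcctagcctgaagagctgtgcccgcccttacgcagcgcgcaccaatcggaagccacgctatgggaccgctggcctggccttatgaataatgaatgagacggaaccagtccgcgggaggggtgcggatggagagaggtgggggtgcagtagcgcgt
Nfil3, chr13:52980990-52981289, minus strand: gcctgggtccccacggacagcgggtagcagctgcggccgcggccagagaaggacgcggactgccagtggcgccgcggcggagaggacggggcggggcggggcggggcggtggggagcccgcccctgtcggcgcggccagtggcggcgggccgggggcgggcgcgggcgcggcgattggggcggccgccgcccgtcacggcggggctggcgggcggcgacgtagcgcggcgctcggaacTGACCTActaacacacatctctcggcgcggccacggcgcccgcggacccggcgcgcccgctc
Arntl, second start, chr7:113207261-113207560, plus strand: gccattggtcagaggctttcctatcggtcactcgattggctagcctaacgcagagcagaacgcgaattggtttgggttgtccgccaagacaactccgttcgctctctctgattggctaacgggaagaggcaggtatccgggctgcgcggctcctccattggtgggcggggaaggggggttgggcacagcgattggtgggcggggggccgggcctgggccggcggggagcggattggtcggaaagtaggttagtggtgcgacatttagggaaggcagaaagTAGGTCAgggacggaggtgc

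The E-box lay 127 to 122 bases before the first Tef start and 138 to 133 bases before the second. In Nfil3 the ROR core read on the opposite strand, 12 to 6 bases before the start, and in Arntl it lay at bases 31 to 37, counted with the start as base 1. No matches overlapped. Of the 32851 mouse promoters in the table, 7.15% held the E-box letters and 2.61% the ROR core, and the 3 D-box spellings were held by 0.938%, 0.743% and 0.119%. No D-box spelling was found in any member's window, and none of the 5 spellings was found in the windows of Dbp, Hlf, Npas2, Clock or Rora.

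Library totals lay between 8843909 and 13344847 counts. Levels are counts scaled to library size by the trimmed mean of M values (CPM), and are not compared between genes. Cardiac muscle genes made up 15.5% to 17.1% of the counts in 10 of the 12 libraries, and a list of 4 hepatocyte genes summed to at most 5.45 CPM, which goes with the heart label and not with the liver named in the protocol text. Tumour 1 and tumour 2 stood apart. Their melanocyte genes made up 1.12% and 0.513% of the counts, against 0.0017% in tumour 3 and at most 0.00105% elsewhere, and their cardiac muscle genes 4.16% and 10.2%, against 15.7% in tumour 3. Values without tumour 1 and tumour 2 are therefore given for the members' differences from or within the tumour group. That leaves tumour 3 as the only tumour library, taken to vary like the other groups. In whole hearts, fewer cells of a type and less RNA per cell cannot be told apart.

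Among the PAR-bZIP factors, Dbp and Hlf had each of the 3 tumour trained libraries above the other 9 libraries of the study, as had 1.43% of all genes tested. Arntl and Npas2 stood at the other end. Their tumour trained libraries lay below the 7 others that remain without tumour 1 and tumour 2, as did 2.73% of all genes, while 3.26% lay above those 7. Against all 9 others both overlapped, with tumour 1 at 14.8 CPM of Arntl and 1.91 CPM of Npas2. Clock had nearly the same mean in both tumour groups, Tef in tumour trained libraries overlapped with the tumour libraries, and Rora with the trained libraries.

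Dbp, an activator of genes with D-boxes and a direct target of the ARNTL and CLOCK pair, had 119, 52.3 and 56.9 CPM in the tumour trained libraries. It had 6.33, 8.27 and 18.4 CPM in the tumour libraries, 21.4, 9.70 and 38.3 CPM in the trained libraries, and 28.8, 8.94 and 9.34 CPM in the control libraries. The lowest tumour trained library was thus above the highest of the other 9, trained 3. Within groups Dbp was the most variable member except in the tumour group, where Npas2 varied more, with a standard deviation of 49.0% of the mean in tumour trained and 72.3% in control libraries. Control 1 lay between trained 1 and trained 3, above control 2 and control 3. The fitted log2 difference was 2.80 ± 0.63 (SE) for tumour trained against tumour and 1.72 ± 0.61 for tumour trained against trained. For trained against control it was 0.56 ± 0.61 and for tumour against control -0.53 ± 0.61. Without tumour 1 and tumour 2, the first was 2.03 ± 0.83 and the last 0.24. In the RefSeq GRCm38.p6 gene table the end of Dbp overlaps Sphk2, a sphingosine kinase gene, and how the authors' counting divided shared reads is not stated. Sphk2 itself had 23.6, 29.1 and 27.1 CPM in tumour trained libraries, against 21.9 to 39.6 CPM in the other 9. The part of shared reads in the Dbp values was not tested.

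Hlf, another PAR-bZIP activator, had 39.9, 33.5 and 30.3 CPM in the tumour trained libraries. The tumour libraries had 13.8, 18.1 and 23.1 CPM, the trained libraries 22.2, 15.1 and 20.3 CPM, and the control libraries 18.2, 22.1 and 25.9 CPM. All 3 tumour trained values were above all 9 others, and the other 3 groups overlapped one another. The log2 difference was 0.92 ± 0.23 for tumour trained against tumour (0.56 ± 0.25 without tumour 1 and tumour 2) and 0.85 ± 0.23 for tumour trained against trained. It was -0.20 ± 0.23 for trained against control and -0.27 ± 0.23 for tumour against control, with 0.08 without tumour 1 and tumour 2.

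Tef, the third PAR-bZIP activator, had 229, 186 and 190 CPM in tumour trained libraries, against 116, 108 and 132 CPM in trained libraries. In control libraries it had 122, 115 and 117 CPM, a standard deviation of 2.93% of the mean. The tumour libraries had 81.5, 120 and 225 CPM, a spread that took in both the control level and the tumour trained level. The tumour libraries lay in the order of their cardiac muscle share, with tumour 3 at the level of the tumour trained libraries. Dbp, Hlf, Nfil3, Arntl and Npas2 had that order as well, while Clock had the opposite order and Rora neither. The part of the melanoma-rich libraries in this was not tested. The log2 difference for tumour trained against tumour was 0.50 ± 0.29 over all libraries and -0.17 ± 0.15 without tumour 1 and tumour 2. For tumour against control it was 0.27 ± 0.29 and 0.94 ± 0.14 in the same order. Tumour trained against trained gave 0.77 ± 0.29 and trained against control 0.01 ± 0.29.

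Nfil3, the repressor at D-boxes, had 13.2, 23.2 and 13.6 CPM in tumour trained libraries, 15.2, 18.4 and 22.5 CPM in tumour libraries and 21.6, 30.3 and 15.1 CPM in trained libraries. The control libraries spanned 18.6, 40.0 and 63.9 CPM, and the 4 groups overlapped. The log2 difference was -0.17 ± 0.41 for tumour trained against tumour (-0.45 without tumour 1 and tumour 2), -0.43 ± 0.41 for tumour trained against trained, -0.87 ± 0.41 for trained against control and -1.13 ± 0.41 for tumour against control (-0.85 without tumour 1 and tumour 2). Control 1, the low control, also had 0.86 CPM of Fosb and 8.03 CPM of Atf3, immediate early genes that had 33.9 to 38.1 CPM and 347 to 369 CPM in control 2 and control 3. Whether handling or dissection plays a part in these values was not tested.

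**Figure D1:**
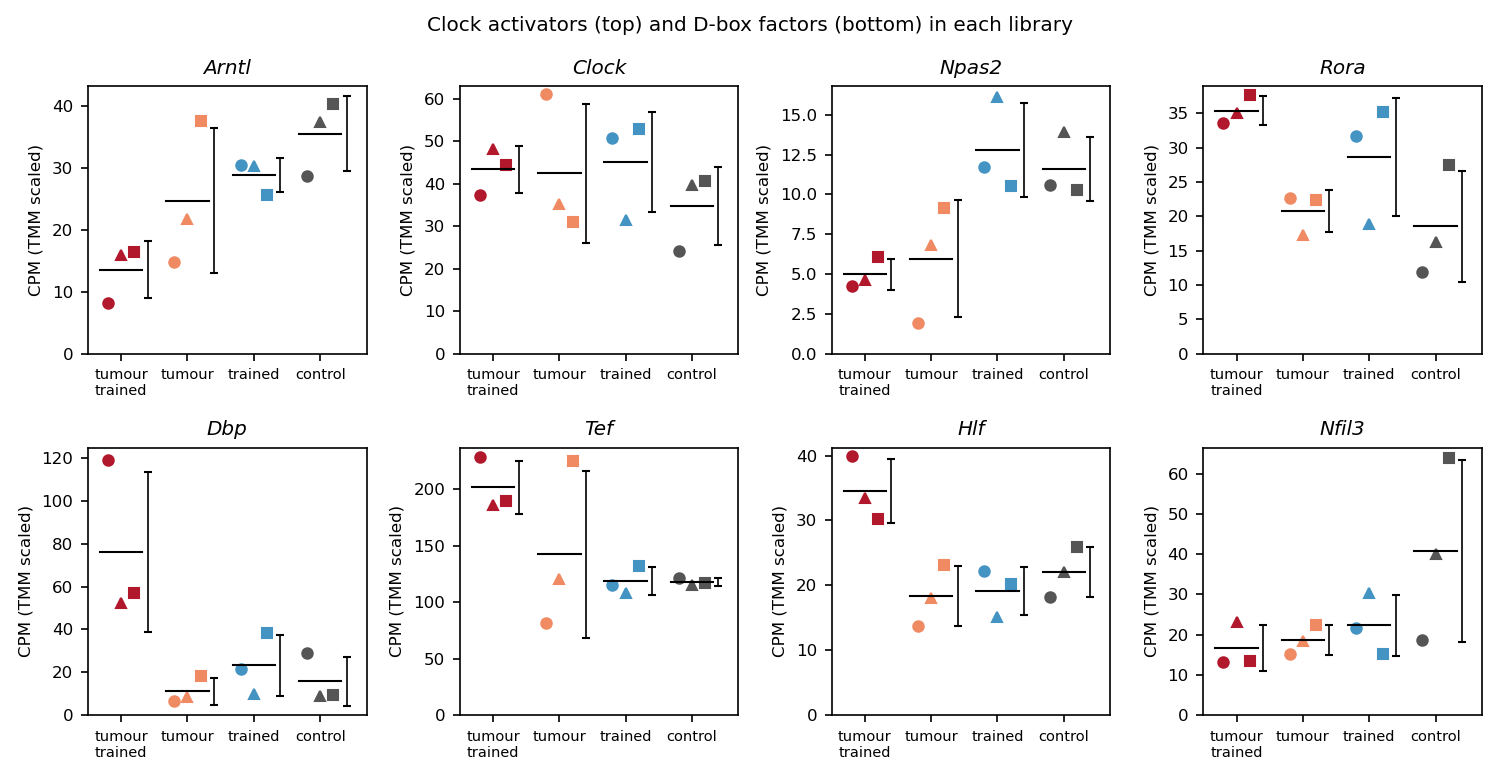
Levels of the 8 genes in each library, in CPM on a linear axis from 0, with groups in the order tumour trained, tumour, trained and control. Circles, triangles and squares are libraries 1, 2 and 3 of a group, the line is the group mean and the bar beside it is ± 1 SD (n = 3). Dbp and Hlf in the tumour trained group lie above every other library, while the tumour libraries are widely spread for Arntl, Clock, Npas2 and Tef.

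Arntl, which encodes the shared partner of CLOCK and NPAS2, had 8.22, 15.9 and 16.5 CPM in tumour trained libraries. The trained libraries had 30.5, 30.3 and 25.7 CPM and the control libraries 28.8, 37.5 and 40.4 CPM, with no overlap with the tumour trained libraries. The tumour libraries reached from 14.8 CPM in tumour 1 and 21.7 CPM in tumour 2 to 37.7 CPM in tumour 3, so that the level followed the cardiac muscle share and tumour 3 lay within the control range. The log2 difference for tumour trained against tumour was -0.86 ± 0.34, and -1.49 ± 0.30 without tumour 1 and tumour 2. For tumour trained against trained it was -1.09 ± 0.34. For tumour against control it was -0.53 ± 0.33 and, without tumour 1 and tumour 2, 0.09, and for trained against control -0.30 ± 0.33.

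Npas2, which can take the place of Clock as the partner of Arntl, had 4.215, 4.63 and 6.09 CPM in tumour trained libraries and 1.91, 6.81 and 9.12 CPM in tumour libraries. In the animals without melanoma cells it had 11.8, 16.1 and 10.5 CPM when trained and 10.6, 13.9 and 10.3 CPM in controls. Every library from mice that had received melanoma cells was thus below every library from mice that had not, with tumour 3 nearest to them. The share of all genes with such a split was not counted, and nothing is concluded from it. The log2 difference was -0.24 ± 0.44 for tumour trained against tumour (-0.89 ± 0.30 without tumour 1 and tumour 2), -1.36 ± 0.44 for tumour trained against trained, -0.98 ± 0.43 for tumour against control (-0.34) and 0.14 ± 0.43 for trained against control.

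Clock, the third activator, did not follow Arntl and Npas2. Its means were 43.4 ± 5.50, 42.5 ± 16.4, 45.1 ± 11.8 and 34.9 ± 9.19 CPM (SD, n = 3 each) in tumour trained, tumour, trained and control libraries, and all groups overlapped. Tumour 1 held the highest Clock level of the study, 61.2 CPM, and had the lowest Npas2 level. The log2 difference was 0.03 ± 0.29 for tumour trained against tumour, 0.47 without tumour 1 and tumour 2, and 0.29 ± 0.29 for tumour against control, -0.16 without them. It was -0.05 ± 0.29 for tumour trained against trained and 0.37 ± 0.30 for trained against control.

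Rora, the nuclear receptor that activates Arntl through ROR elements, had 33.5, 35.0 and 37.6 CPM in tumour trained libraries, against 22.7, 17.2 and 22.3 CPM in tumour libraries. The trained libraries had 31.7, 18.9 and 35.2 CPM and the control libraries 11.9, 16.2 and 27.5 CPM. The tumour trained libraries were above the tumour and control libraries but overlapped with the trained libraries, among which trained 2 was low. The log2 difference was 0.77 ± 0.30 for tumour trained against tumour (0.65 without tumour 1 and tumour 2), 0.31 ± 0.30 for tumour trained against trained, 0.16 ± 0.30 for tumour against control (0.28) and 0.62 ± 0.30 for trained against control.

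The Dbp to Arntl ratio of counts joined the opposite ends of the set. It was 14.5, 3.28 and 3.45 in the tumour trained libraries. In the tumour libraries it was 0.429, 0.380 and 0.489, in the trained libraries 0.700, 0.320 and 1.49, and in the control libraries 1.00, 0.238 and 0.231. Every tumour trained library was above every other library, and the 3 tumour libraries lay close together. Tumour 1 and tumour 2 stood apart from tumour 3 in Dbp, Arntl, Tef and the marker genes. From tumour 1 to tumour 3, Dbp rose over 6.33, 8.27 and 18.4 CPM and Arntl over 14.8, 21.7 and 37.7 CPM. Both genes of the ratio thus rose together, and the ratio does not show their spread. On the log2 scale the ratio averaged 2.45 ± 1.22 in tumour trained, -1.22 ± 0.18 in tumour, -0.53 ± 1.11 in trained and -1.39 ± 1.21 in control libraries (SD, n = 3 each). Tumour trained exceeded tumour by 3.67 on this scale, a 12.7-fold difference, and by 3.49 when tumour 3 stood alone. It exceeded trained by 2.98, or 7.89-fold. The spread within the trained and control groups was wide: trained 2 lay below trained 1 and trained 3, and control 1 lay above control 2 and control 3. Ratios are free of library scaling, but a single ratio at an unknown hour does not tell a shift in phase from a change in level.

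The Tef to Arntl and Hlf to Arntl ratios had the tumour trained libraries above all others as well. For Tef the ratio was 27.8, 11.7 and 11.5 in tumour trained libraries, 5.53, 5.52 and 5.97 in tumour libraries, 3.78, 3.55 and 5.13 in trained libraries and 4.23, 3.07 and 2.89 in control libraries. The tumour libraries formed a step of their own here, above every trained and control library. For Hlf it was 4.86, 2.10 and 1.83 in tumour trained libraries, 0.935, 0.831 and 0.614 in tumour libraries, 0.727, 0.497 and 0.789 in trained libraries and 0.631, 0.588 and 0.642 in control libraries. The tumour, trained and control libraries overlapped in this ratio. Tumour trained 1 stood above tumour trained 2 and tumour trained 3 in all 3 ratios, with the lowest Arntl level of the study.

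**Figure D2:**
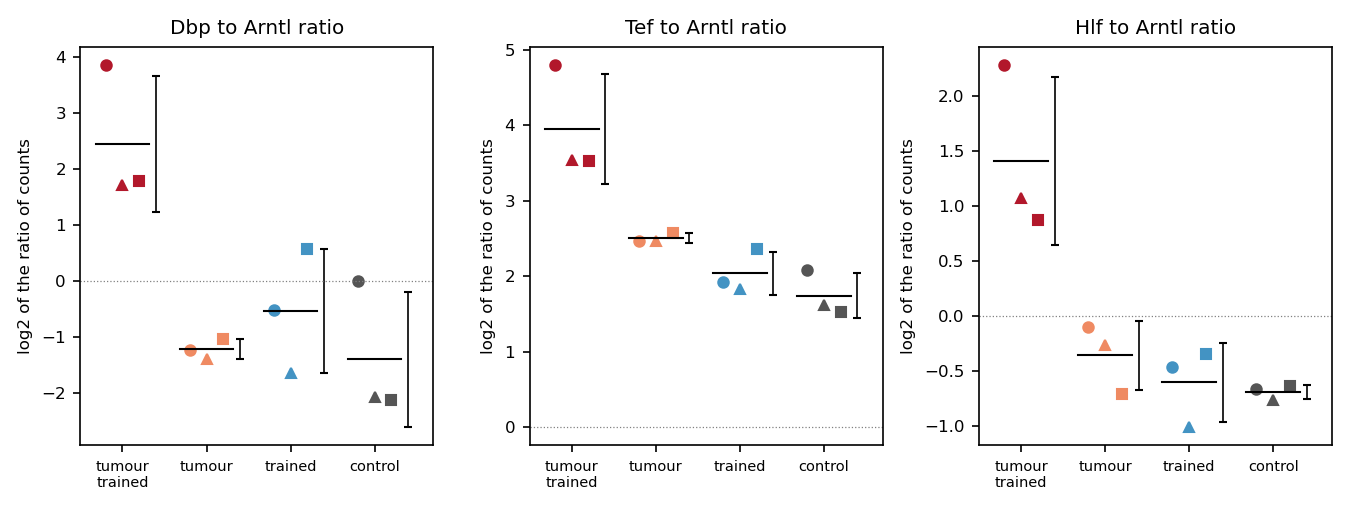
Ratios of the counts of Dbp, Tef and Hlf to those of Arntl in each library, as log2 values, with symbols, lines and bars as in the plot of levels (mean and ± 1 SD, n = 3). The 3 tumour trained libraries lie above all other libraries in each panel.

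Across all genes, edgeR's quasi-likelihood test at a Benjamini-Hochberg adjusted p below 0.05 called 9.05% of the genes in tumour trained against tumour, 1.79% of them higher and 7.25% lower. Of the 8 members, Dbp and Hlf were called higher and none lower, which is stated as a description since these libraries chose the set. The 2 calls were made again in the fits without trained 2 and without tumour 3, and were lost in the 10 fits that left out another library, as well as without tumour 1 and tumour 2 together, where 0.716% of all genes were called. Tumour 3 is the tumour library with the fewest melanocyte reads. Both Dbp and Hlf rose from tumour 1 to tumour 3, in the order of the cardiac muscle share. The part of melanoma RNA in the calls was not tested. Scaling to cardiac muscle genes moved the median log2 difference of all genes in this comparison to -1.37, and gave 1.86 for Dbp, -0.23 for Hlf, -0.46 for Tef, -0.61 for Rora and -1.58 for Clock. By ranges alone, Dbp, Hlf and Rora had all tumour trained libraries above all tumour libraries, as had 13.5% of all genes tested, and no member lay lower in this way, as did 14.5%. The members' median log2 difference was 0.27 (0.15 without tumour 1 and tumour 2), beside -0.04 over all genes tested.

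Tumour against control called 6.79% of all genes, 5.33% higher and 1.46% lower, and no member. DESeq2 called 1 member, and the share of all genes it called was not counted, here or in the other comparisons. Its counts are thus not read as particular to clock genes. At an unadjusted p below 0.05 in edgeR's test were 2 members and 34.4% of all genes. Without tumour 1 and tumour 2, where 1.40% of all genes were called, 1 member was called, Tef. The members' median log2 difference was -0.40, and 0.09 without those libraries, beside 0.11 over all genes. Scaling to cardiac muscle genes moved the median of all genes to 1.54 and turned the differences of Arntl, Dbp, Hlf and Nfil3 to 0.56, 0.53, 0.98 and 0.17, all below that median. Only Npas2 among the members had ranges that did not overlap, lower in the tumour libraries (log2 difference -0.98, and -0.11 with scaling to cardiac muscle genes), where 11.8% of all genes were (14.2% were higher).

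In tumour trained against trained, neither group held libraries rich in melanocyte reads, and edgeR called 0% of the genes and no member. The fit takes a shared spread per gene over all groups. SEs and calls of comparisons without the tumour group thus also carry the spread of the tumour libraries. At an unadjusted p below 0.05 were 5 members and 1.17% of all genes, a count from which nothing is read since these libraries chose the set, and DESeq2 called 0 members. The ranges did not overlap for Dbp, Tef and Hlf, higher in tumour trained, and for Arntl and Npas2, lower, where 7.92% and 8.04% of all genes were. The median over members was 0.13, beside 0.01 over all genes. Trained against control also called 0% of the genes and no member, with 0 members and 2.18% of all genes at an unadjusted p below 0.05 and 0 calls by DESeq2, and every member's ranges overlapped, where 4.04% of all genes lay higher and 5.45% lower without overlap. The median over members there was 0.08. Trained and control libraries are shared between these comparisons, so the members' values in them are not independent.

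The interaction asks whether the difference with training was of another size in mice given melanoma cells. It called 0.0235% of the genes and no member, with 2 members and 14.4% of all genes at an unadjusted p below 0.05 and 0 calls by DESeq2. The interaction estimate was 2.25 ± 0.86 for Dbp (1.49 without tumour 1 and tumour 2), 1.12 ± 0.32 for Hlf (0.77) and -0.56 ± 0.47 for Arntl (-1.19) on the log2 scale, with the values without those libraries in brackets.

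**Figure D3:**
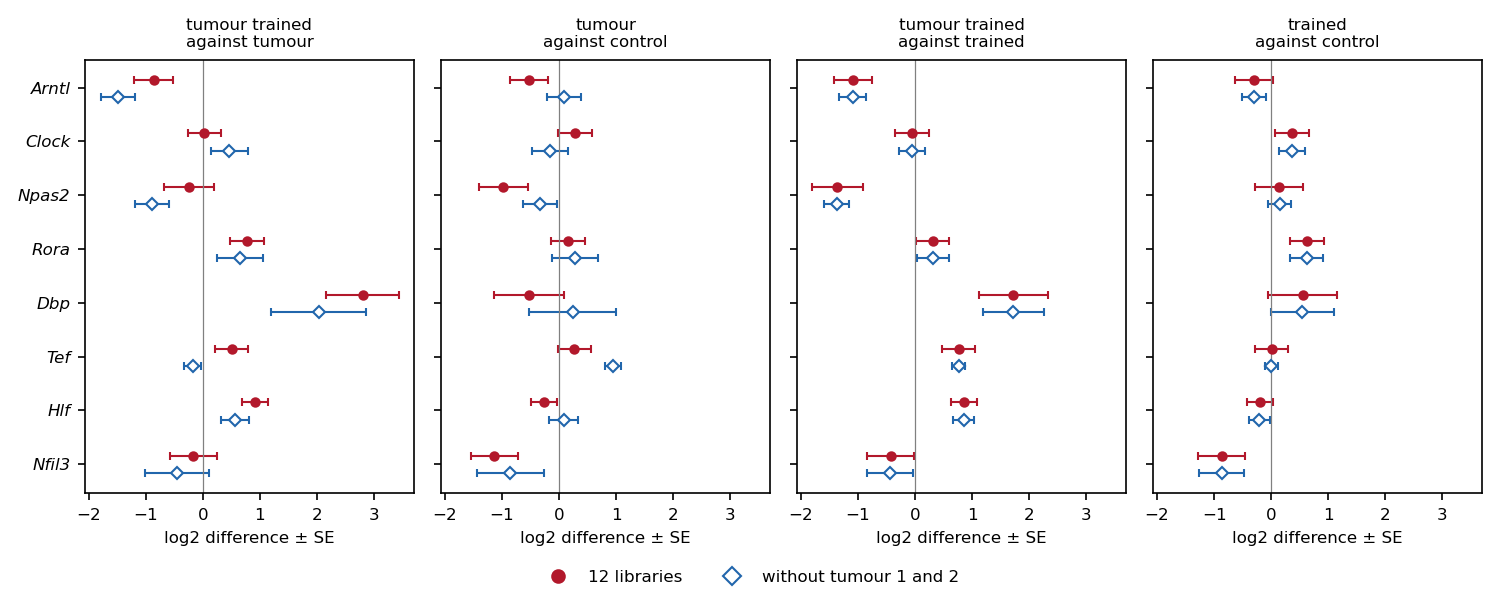
Fitted log2 differences ± SE of the 8 genes in 4 comparisons, from all 12 libraries (filled circles) and without tumour 1 and tumour 2 (open diamonds). In tumour trained against tumour, leaving out these libraries moves Dbp to 2.03, against 2.80 with all 12, and Tef to -0.17, against 0.50. The differences of tumour trained against trained hardly move, while their SEs narrow for most members.

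The repressors of the loop, which the set does not include, were read from the same fits. Of 10 tested, 3 were called higher in tumour trained against tumour, where 1.79% of all genes were, and 7 were not called. Per3, a period gene, had 55.1, 42.4 and 38.9 CPM in tumour trained libraries, against 7.40, 9.45 and 17.97 CPM in tumour libraries (log2 difference 1.98 ± 0.35, edgeR adjusted p = 0.0357). Nr1d2, which represses Arntl, had 153.5, 146.5 and 151.1 CPM in tumour trained libraries, against 42.0, 53.6 and 61.2 CPM in tumour libraries (1.53 ± 0.32, edgeR adjusted p = 0.0357). For Ciart, a repressor of the ARNTL and CLOCK pair, the values were 9.70, 8.94 and 5.99 CPM in tumour trained libraries and 3.52, 2.29 and 4.15 CPM in tumour libraries (1.31 ± 0.37, edgeR adjusted p = 0.0484). Without tumour 1 and tumour 2 their log2 differences were 1.32 for Per3, 1.28 for Nr1d2 and 0.97 for Ciart, and none was called (adjusted p = 0.145, 0.230 and 0.346, with largest values over all alternatives of 0.145, 0.541 and 0.997). As for Dbp and Hlf, the calls rested on the choice of libraries: fits without 1 library called Per3 in 3 of 12, and Nr1d2 and Ciart in 2 of 12.

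The other 7 repressors had differences in both directions, none of them called. In tumour trained against tumour, Nr1d1, the relative of Nr1d2, had 213, 143 and 132 CPM in tumour trained libraries and 26.6, 90.1 and 94.8 CPM in tumour libraries, without overlap (log2 difference 1.21 ± 0.40, edgeR adjusted p = 0.0710, and 0.76 without tumour 1 and tumour 2). Bhlhe40, a repressor that also binds E-boxes, had 68.6, 61.7 and 60.4 CPM in tumour trained libraries and 177, 136 and 55.2 CPM in tumour libraries (-0.95 ± 0.31, edgeR adjusted p = 0.0732, and 0.19 without tumour 1 and tumour 2). Its relative Bhlhe41 gave -0.74 ± 0.33, and 0.34 without them. Both had their high values in tumour 1 and tumour 2. Per1 had 40.1, 71.5 and 65.2 CPM in tumour trained libraries and 54.8, 62.9 and 55.2 CPM in tumour libraries, and these ranges overlapped. The cryptochrome genes overlapped as well. Cry1 gave a log2 difference of 0.05 ± 0.23, and -0.25 without tumour 1 and tumour 2. Cry2 gave 0.37 ± 0.31, and -0.41 without them. The median log2 difference of the 10 was 0.41, and 0.28 without tumour 1 and tumour 2. Against the trained libraries, 7 of the 10 had all tumour trained libraries above, as had 7.92% of all genes. There 9 had a positive log2 difference, and the median of the 10 was 0.79, beside 0.01 over all genes. No repressor was called there: 5 had an unadjusted p below 0.05, as had 1.17% of all genes. In that comparison Per2 had 18.4, 15.6 and 13.02 CPM in tumour trained libraries and 7.52, 3.64 and 7.86 CPM in trained libraries. The tumour libraries, with 8.30, 12.78 and 13.27 CPM, overlapped with the tumour trained libraries. They lay above all control libraries (6.50, 4.57 and 5.56 CPM), as did 14.2% of all genes.

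**Figure D4:**
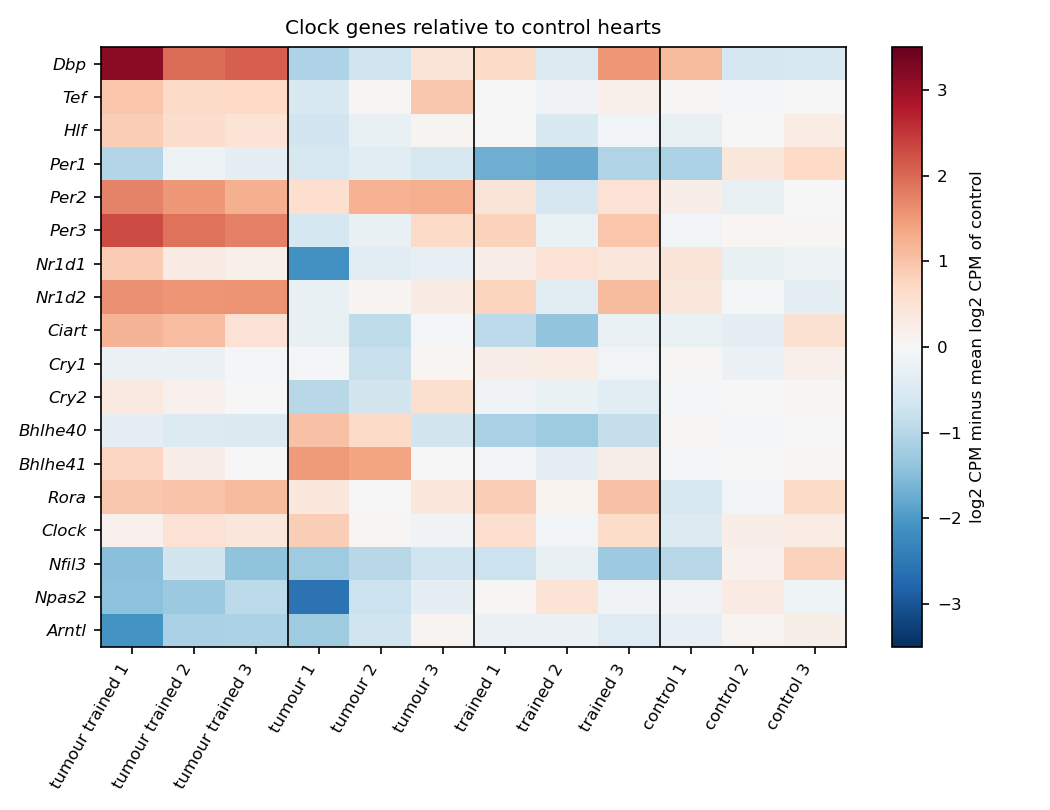
Log2 CPM of the 8 genes and the 10 repressors in each library minus the mean of the 3 control libraries, with red above and blue below the control mean. In the tumour trained libraries Dbp, Per3, Nr1d2 and Per2 are high and Arntl and Npas2 are low, and tumour 1 differs from tumour 3 in Npas2, Nr1d1 and Bhlhe40. Per2 is also above, and Npas2 below, the control mean in the tumour libraries.

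The wider clock lists held 38 further genes tested, among them kinases and ubiquitin ligases that set the stability of clock proteins, output genes, and clock-linked cardiac genes. In tumour trained against tumour, 4 of these were called lower and none higher, where 7.25% of all genes were called lower and 1.79% higher. Cdkn1a, a cell cycle inhibitor, had 14.2, 33.6 and 36.8 CPM in tumour trained libraries, against 185, 132 and 199 CPM in tumour libraries (log2 difference -2.61 ± 0.39, edgeR adjusted p = 0.0357). Without tumour 1 and tumour 2 its difference was -2.84 ± 0.45, and its largest adjusted p over all alternatives was 0.130. Of the 12 fits without 1 library, 4 called Cdkn1a, and 2 called each of Csnk1d, Klf10 and Lonrf3. The other 3 were Csnk1d, a casein kinase that phosphorylates period proteins (-0.57 ± 0.15, edgeR adjusted p = 0.0401), Klf10 (-0.87 ± 0.22, adjusted p = 0.0371) and Lonrf3 (-2.43 ± 0.60, adjusted p = 0.0371). Those 3 were not called without tumour 1 and tumour 2, where the differences were -0.34 for Csnk1d, -0.99 for Klf10 and -0.74 for Lonrf3. Lonrf3 had 33.3 and 10.2 CPM in those libraries and 4.98 CPM in tumour 3, whereas Klf10 had 35.1, 35.7 and 39.5 CPM in tumour 1, 2 and 3. In tumour against control, only the output gene Tspan4 was called, with 100, 75.2 and 38.5 CPM in tumour libraries, against 20.9, 22.6 and 22.6 CPM in control libraries (1.70 ± 0.29, edgeR adjusted p = 0.0391). Without tumour 1 and tumour 2 its difference was 0.82 ± 0.20 and it was not called (edgeR adjusted p = 0.084, at most 0.152 over all alternatives). It was called in 2 of the 12 fits without 1 library, those without tumour 1 and without tumour 3. None of the 48 clock genes outside the set was called in trained against control, tumour trained against trained or the interaction. At an unadjusted p below 0.05 there were 5, 7 and 8 of them, beside 2.18%, 1.17% and 14.4% of all genes, and DESeq2 called 0, 0 and 1.

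The genes whose log2 CPM was most like that of Dbp over the 12 libraries, by the lower of Pearson's r over all libraries and over the 10 without tumour 1 and tumour 2, included 2 clock repressors among 12398 genes ranked. They were Nr1d2 (r = 0.941 over 12 and 0.944 over 10 libraries), Per3 (0.926 and 0.898), Ccdc62 (0.915 and 0.887), Brd7 (0.870 and 0.906) and Ppl (0.898 and 0.869). For Arntl they were Ccdc32 (0.866 and 0.881), Unc119b (0.870 and 0.863), Git2 (0.859 and 0.898), Gatad1 (0.832 and 0.835) and Irak2 (0.819 and 0.819), none of them in the clock lists. These values describe 12 libraries in 4 groups that share the group differences already given, and the libraries of a group are not independent points.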

How the data were processed

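RNA of 12 mouse heart libraries was sequenced on MGI instruments after Trizol extraction, per the labels' protocols, which name livers where the tissue label says heart. The values are estimated counts per gene, which the authors deposited unnormalized in a single table. The submitters' processing notes name HISAT2 2.2.1, featureCounts and both GRCm39 and mm10. The strand setting is not given in the sources used here. Between 7.09% and 8.92% of a library's values were not whole.

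Counts were rounded and fitted with edgeR 4.0.16 in R 4.3.3 (TMM scaling, filterByExpr, quasi-likelihood test, 1 mean per group, 8 residual degrees of freedom), which tested 12778 of 17397 genes. The Benjamini-Hochberg adjustment covered the whole tested table, with calls at an adjusted p below 0.05. The SE is the log2 difference divided by the square root of F. A count of 3 was 0.179 to 0.352 CPM, and the lowest count of a member was 32. The test was checked on simulated counts.

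Groups came from sample titles. Pairs of libraries of a group differed by 3.73 to 390 chi-square units per gene, and none was merged. Alternatives were DESeq2 1.42.0, its size factors, scaling to cardiac muscle genes, no filter, a replicate block, each library left out, and tumour 1 and tumour 2 left out. The Dbp to Arntl ratio was also computed with a pseudocount. Members and lists were chosen with earlier results of these data known. Named beyond the members are the genes of the clock lists that were called, the other clock repressors, and the 5 genes most like Dbp and Arntl. Those other repressors are Nr1d1, Per1, Per2, Cry1, Cry2, Bhlhe40 and Bhlhe41. Which of their values are printed was chosen after they were seen.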

Additional observations from a re-analysis of the deposited data

How the results depend on the processing

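The counts of members called depended on the libraries and on the scaling. Shares of all genes called were counted only with all libraries and TMM scaling, and without tumour 1 and tumour 2. The counts under the alternatives are thus not read as particular to clock genes. In tumour trained against tumour, 2 of 8 were called, 0 without tumour 1 and tumour 2, and between 0 and 4 when 1 library was left out. In tumour against control 0 were called, 1 by DESeq2, 1 without tumour 1 and tumour 2, 3 with scaling to cardiac muscle genes, and 0 to 3 with 1 library left out. For the interaction the count was 0, and 0 to 3 with 1 library left out. Among the 48 other clock genes, tumour trained against tumour called 7 (3 higher and 4 lower), 14 by DESeq2, 3 without tumour 1 and tumour 2, 22 (0 higher) with cardiac muscle scaling, and 0 to 30 with 1 library left out. Tumour against control called 1 of them, 6 by DESeq2, 2 without the filter, 4 without tumour 1 and tumour 2, 35 with cardiac muscle scaling, and 0 to 21 with 1 library left out. The interaction called 0, 1 by DESeq2, 2 without tumour 1 and tumour 2, and 0 to 17 with 1 library left out, and trained against control called 0, and 1 without tumour 1 and tumour 2. Cardiac muscle scaling moved the median log2 difference of all genes to 1.54 in tumour against control and -1.37 in tumour trained against tumour. In the second of these it turned Hlf to -0.23 and left Dbp at 1.86, both above that median, and it called Dbp higher and Arntl and Npas2 lower. The cause of these changes was not tested. Of 720 recomputed log2 differences of members, 50 had another sign than with all libraries and TMM scaling, 13 of these with cardiac muscle scaling and 7 without tumour 1 and tumour 2. Among the 50, the only member called in its comparison was Hlf in tumour trained against tumour. Differences in the log2 Dbp to Arntl ratio moved by less than the spread of replicates under every alternative run. Leaving out 1 of 3 libraries cannot move a difference between 2 groups by more than that spread. Nothing is therefore concluded from this. With 1 library left out, the difference was 2.97 to 4.04 for tumour trained against tumour, 2.28 to 3.53 for tumour trained against trained, 0.32 to 1.56 for trained against control and -0.18 to 0.88 for tumour against control.

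Replicate numbers did not pair the libraries: deviations of same-numbered libraries correlated between -0.27 and 0.24, and the best correlate in another group had the same number in 8 of 36 cases. With the number as a replicate block, tumour trained against tumour called 0 members and 1 other clock gene, and tumour against control called 0 other clock genes.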
